A study of Mus musculus with 8 samples.

Results

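A group of 9 immediate-early genes, *Egr1*, *Egr2*, *Egr3*, *Nr4a1*, *Nr4a2*, *Ier2*, *Ier3*, *Srf* and *Arc*, was followed through the 4 conditions of an RNA-seq experiment in NMuMG cells. They were taken by symbol from the deposited count table, in which all 9 had a row among 37310 genes, and the symbols were chosen with earlier results of these data known. Of these, 8, all except *Egr3*, had enough reads to be tested among 13028 genes.

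NMuMG is an epithelial cell line from normal mouse mammary gland, grown in medium with serum and insulin. The experiment held 8 libraries, 2 biological replicates each of control cells, control cells given TGF-β1 at 10 ng/ml for 2 h, KO cells, and KO cells given the same treatment. In the KO cells, CRISPR-Cas9 had removed a stretch of the promoter and the first exon of the long non-coding RNA gene *Lnc-Nr6a1*, and the edited cells were grown as clones from sorted cells, so a difference between the genotypes cannot be told apart from a difference between clones. Cells were washed with PBS before TGF-β was added, and the sources used here do not say whether untreated cells were washed, so the wash and the cytokine cannot be told apart. The comparisons ask which of these genes stood at another level after 2 h of TGF-β, and whether the libraries labelled KO differed. No earlier time was sampled, so a change that had passed by 2 h would not be seen.

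Immediate-early genes are transcribed within minutes of a stimulus without new protein synthesis, and most of their messages are short-lived. EGR proteins are zinc finger transcription factors that bind GC-rich sites, and NR4A proteins are orphan nuclear receptors whose activity is set mainly by how much of them is made. SRF binds CArG boxes together with partners of 2 kinds, the ternary complex factors activated by ERK and the myocardin-related factors released when actin polymerises. TGF-β signals through SMAD proteins and, in epithelial cells, also through ERK, which gives it more than 1 route to such genes.

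In the NCBIM37 annotation that the gene identifiers follow, all 9 are protein-coding genes. *Egr2* lies at chr10:66998223-67004936 and *Egr3* at chr14:70477252-70479964, both on the plus strand. *Nr4a1* spans chr15:101097277-101105223 on the plus strand and *Nr4a2* chr2:56959241-56976414 on the minus strand. *Ier2*, a gene of 1 exon, lies at chr8:87185230-87186751 on the minus strand and *Ier3* at chr17:35958629-35959868 on the plus strand. *Srf* lies at chr17:46683788-46693111 and *Arc* at chr15:74499513-74503000, both on the minus strand. *Egr1* shares 8 exon bases with *Gm17507* on the opposite strand and *Srf* overlaps *Gm16736* without shared exon bases. The strand setting of the read counting is not given in the sources used here, so reads at the 8 shared bases of *Egr1* could not be separated. In a count over exons *Srf* has no bases shared with its partner.

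RefSeq promoter windows of build GRCm38.p6 were found for 5 of the 9 genes, *Egr2*, *Nr4a1*, *Nr4a2*, *Ier3* and *Srf*, and not for *Egr1*, *Egr3*, *Ier2* and *Arc*. The 250 bases before the start are shown for 4 of them, because *Ier3*, *Srf* and *Nr4a1* moved together between replicates in the data described next and *Egr2* is a gene that rose after TGF-β. Capitals mark matches, on either strand, to the motifs that were searched.
*Srf*, chr17:46556163-46556412, minus strand: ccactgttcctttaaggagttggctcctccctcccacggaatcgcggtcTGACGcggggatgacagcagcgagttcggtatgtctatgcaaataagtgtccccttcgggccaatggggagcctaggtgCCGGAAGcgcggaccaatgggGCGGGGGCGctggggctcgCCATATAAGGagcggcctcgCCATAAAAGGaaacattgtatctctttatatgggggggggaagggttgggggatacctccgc
*Egr2*, the third of its 5 start sites, chr10:67537619-67537868, plus strand: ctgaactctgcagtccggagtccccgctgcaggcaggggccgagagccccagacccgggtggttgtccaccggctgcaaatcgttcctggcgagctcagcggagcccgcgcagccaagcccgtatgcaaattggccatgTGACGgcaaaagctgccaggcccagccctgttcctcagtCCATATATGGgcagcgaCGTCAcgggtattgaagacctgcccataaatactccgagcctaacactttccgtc
*Nr4a1*, chr15:101266596-101266845, plus strand: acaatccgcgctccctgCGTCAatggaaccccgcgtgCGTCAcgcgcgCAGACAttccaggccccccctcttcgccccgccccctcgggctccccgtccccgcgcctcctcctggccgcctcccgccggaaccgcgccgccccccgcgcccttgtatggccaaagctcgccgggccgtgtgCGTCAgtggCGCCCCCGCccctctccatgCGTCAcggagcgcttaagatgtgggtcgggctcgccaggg
*Ier3*, chr17:35821463-35821712, plus strand: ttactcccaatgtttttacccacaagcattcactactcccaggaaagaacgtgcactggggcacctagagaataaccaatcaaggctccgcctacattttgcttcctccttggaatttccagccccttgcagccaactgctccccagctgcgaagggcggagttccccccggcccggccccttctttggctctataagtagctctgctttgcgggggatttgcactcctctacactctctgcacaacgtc

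The *Srf* window held 2 CArG boxes, CCATATAAGG starting 82 bases and CCATAAAAGG starting 62 bases before the start. It also held the EGR motif GCGNGGGCG, the ETS core CCGGAAG and the cyclic AMP element core TGACG. The *Egr2* window held 1 CArG box, CCATATATGG, at 72 bases before the start, and 2 copies of TGACG, which reads CGTCA on the other strand. The windows of the next 2 start sites overlap the one shown and hold the same CArG box. The start site before it held another CArG box, CCTTTTTTGG, and the one farthest upstream held no match. Of all 32851 RefSeq windows of 300 bases, 1.63% held a CArG box, 5.55% the EGR motif, 8.86% the ETS core and 20.8% TGACG. *Nr4a1* and *Nr4a2* had no CArG box but 4 copies of TGACG each and 1 EGR motif each, and *Nr4a1* also held CAGACA, the core of a SMAD element, found in 21% of windows. The *Ier3* window held no match to any motif searched. The full elements TGACGTCA, in 1.79% of windows and overlapping TGACG, AAAGGTCA of the NR4A receptors, in 1.51%, and GTCTAGAC of SMAD proteins, in 0.213%, were in none of the members' windows. These letter matches describe the windows and are not evidence of binding.

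Library totals ran from 4297832 counts in KO replicate 1 to 13574397 in KO replicate 2 after TGF-β, so that 3 counts, taken here as the floor of detection, equalled 0.238 to 0.661 CPM, the unit used throughout for a gene's counts scaled to its library's TMM-adjusted size. *Gm13507*, the annotated name of *Lnc-Nr6a1*, had 25 and 35 counts in the treated control libraries and 0 in each treated KO library. In untreated cells it had 3 and 14 counts in control and 11 and 7 in KO, so it was not lower in the untreated libraries labelled KO, and KO here names the label of a library. The epithelial markers *Krt8*, *Krt18* and *Cdh1* were abundant in every library, while *Esrp1* and *Cldn3* were at 0 in all 8 and *Epcam* was at 0 in 7. The myoepithelial sum, mostly *Krt14*, was 2.87 to 5.91 CPM untreated and 23.9 to 42.1 CPM after TGF-β. Fibroblast, endothelial and haematopoietic marker sums reached at most 5.32 CPM in any library, and *Thy1*, *Lum*, *Emcn*, *Kdr*, *Cd3e* and *Emr1* were at 0 throughout.

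**Figure D1:**
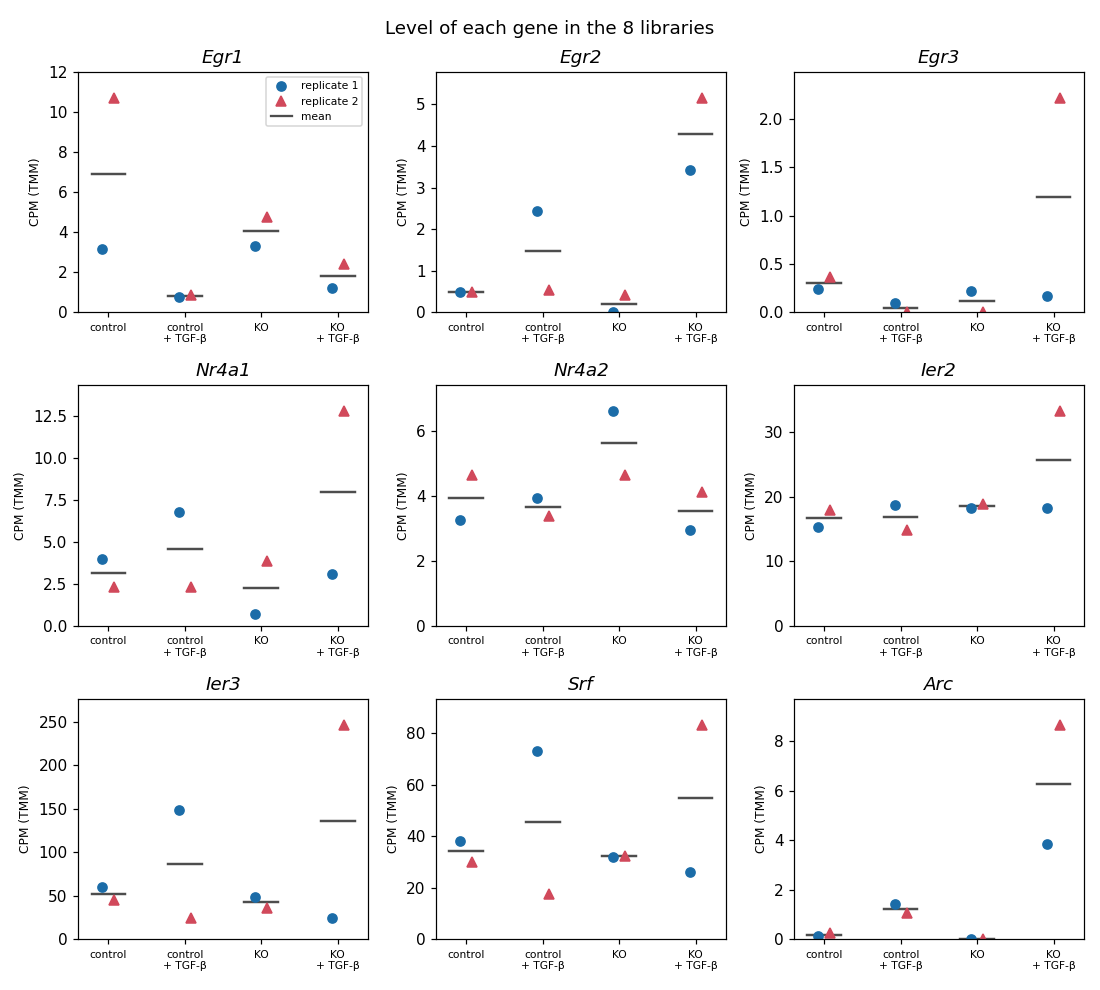
Level of each gene in CPM (vertical axis, linear, from 0) in control and KO libraries with and without TGF-β for 2 h. Circles are replicate 1, triangles replicate 2 and bars the mean of both. *Ier3* and *Srf* are high in control replicate 1 and in KO replicate 2 after TGF-β, whereas *Arc* is higher in all 4 treated libraries than in any untreated one.

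Per kilobase of exon, which allows genes to be set side by side, the mean level over the 8 libraries was highest for *Ier3* at 70.0 CPM per kb, in the 92.8th percentile of tested genes. *Ier2* followed at 12.8 and *Srf* at 10.2 CPM per kb, near the middle of all tested genes. The others were low messages, *Nr4a1* at 1.81, *Egr1* at 1.10, *Nr4a2* at 1.03, *Arc* at 0.627, *Egr2* at 0.475 and *Egr3* at 0.282 CPM per kb. The ranges over libraries overlapped for every pair of neighbours in this order.

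The treated replicates stood apart in these genes. After TGF-β, control replicate 1 was higher than replicate 2 for 7 of the 8 tested members, with a median difference of 0.90 in log2 CPM. In the KO libraries the order was turned, and replicate 2 was higher than replicate 1 for 8 of 8, with a median of -0.996 for replicate 1 minus replicate 2. Among all tested genes 51.1% and 50.8% were higher in replicate 1 in these pairs, and the medians were 0.01 and 0.0046. The split was widest for *Ier3*, whose difference of 2.60 in control exceeded that of 99.6% of tested genes in size and whose difference of -3.35 in KO exceeded that of 99.9%. *Srf*, at 2.03 and -1.67, and *Nr4a1*, at 1.45 and -1.97, were also beyond at least 96.4% of genes in both pairs. *Nr4a2* differed by 0.20 and -0.46 and did not stand out. In each pair the library with the higher levels was also the deeper one, by 1.13-fold in control and 1.06-fold in KO, and the part of depth in the split was not tested.

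**Figure D2:**
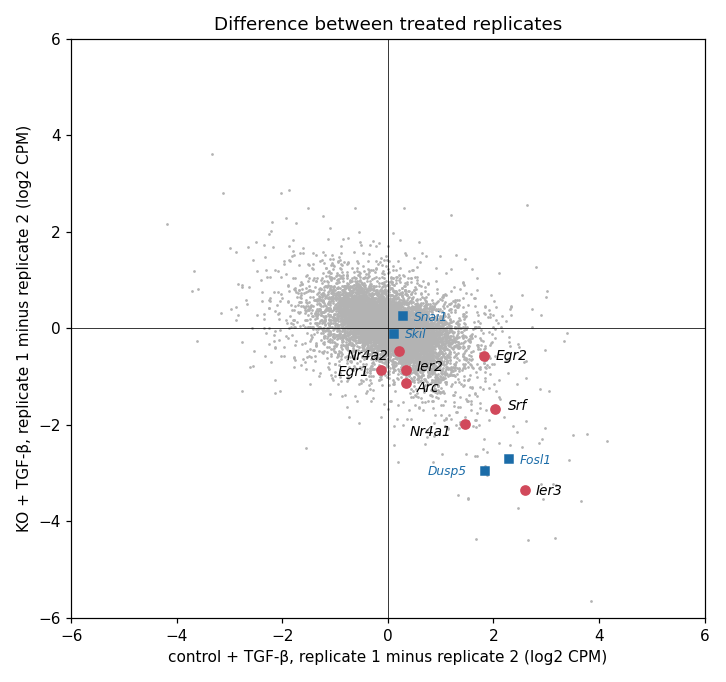
Difference between the TGF-β-treated replicates, replicate 1 minus replicate 2 in log2 CPM, in control (horizontal axis) and KO cells (vertical axis). Grey points are all 13028 tested genes, red circles the 8 tested members and blue squares 2 SMAD-dependent genes, *Snai1* and *Skil*, and 2 ERK-linked genes, *Dusp5* and *Fosl1*. *Ier3*, *Srf* and *Nr4a1* sit in the lower right, high in control replicate 1 and in KO replicate 2, while *Snai1* and *Skil* sit near the centre.

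*Egr1*, the founding member of its family and a rapid target of growth factors, fell after TGF-β in control cells. It measured 3.14 and 10.7 CPM in control replicates 1 and 2, and 0.750 and 0.847 CPM after TGF-β. In the libraries labelled KO it measured 3.31 and 4.79 CPM untreated and 1.22 and 2.38 CPM treated. Both treated libraries lay below both untreated ones in each genotype, but the untreated control replicates themselves differed more than 99.4% of tested genes did. The log2 fold change in control cells was -3.10 ± 0.67 (SE; adjusted p = 0.0238 by edgeR's quasi-likelihood test with Benjamini-Hochberg adjustment, n = 2 per group), and *Egr1* was the 1 member called there. Genes were called at an adjusted p below 0.05 and a log2 fold change beyond 0.5, which 4.47% of all tested genes met in the lower direction in control cells. In KO cells the fold change was -1.18 ± 0.62 (adjusted p = 0.298), and the call was not made. The control value fell in size to -1.96 without control replicate 2 (adjusted p = 0.161). The call was also lost without treated replicate 1 (adjusted p = 0.0557), without treated replicate 2 (0.0596) and by limma-voom (0.0648). As in any bulk sample, fewer cells with the message and less message per cell cannot be told apart.

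*Egr2*, known for its part in hindbrain patterning and myelination, rose after TGF-β in KO cells. It was near the floor in untreated cells, at 0.482 and 0.488 CPM in control and 0 and 0.399 CPM in KO. After TGF-β it measured 2.44 and 0.529 CPM in control and 3.42 and 5.17 CPM in KO. Both treated KO libraries were above every other library, whereas in control cells replicate 2 stayed at the untreated level. In KO cells the counts were 107 in the treated and 3 in the untreated libraries together, a ratio of 17.3 with a 95% counting interval from 5.77 to 85.3 after scaling for depth. The fitted log2 fold change was 4.07 ± 0.95 (SE; adjusted p = 0.0359, edgeR), a direction in which 4.25% of tested genes were called. *Egr2* passed the filter on low counts only through treated libraries in which it was high, so the call cannot be read against that share. Since the untreated KO libraries were at or under the floor, the size of the fold change depends on a few counts. It became 8.34 without KO replicate 2, which left an untreated library at 0. In control cells the ratio was 3.17 (1.43 to 7.99), from 31 counts against 8, and the edgeR test was not passed (log2 fold change 1.61 ± 0.86, adjusted p = 0.263). With 1 library left out the control fold change ran from 0.12 to 2.27 in log2. The KO call was lost without KO replicate 1 (adjusted p = 0.174), without KO replicate 2 (0.132) and without treated replicate 2 (0.142), and also with a replicate block (0.0633) and by limma-voom (0.0553).

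*Egr3*, a close relative that is itself switched on by the same stimuli, was at or under the floor in 7 of 8 libraries. Its counts were 2 and 3 in control, 1 and 0 in treated control, 1 and 0 in KO, and 2 and 28 in treated KO cells. A level of 2.23 CPM in treated KO replicate 2 was thus the only one above the floor of its own library, apart from control replicate 2, which was at it. With no filter on low counts *Egr3* was called between the treated genotypes (log2 fold change 4.29, adjusted p = 0.0178, edgeR), a call that rested on that 1 library.

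The 2 NR4A receptors did not pass the test in any comparison. *Nr4a1*, which encodes the growth factor-inducible receptor NUR77, measured 3.98 and 2.32 CPM in control and 6.75 and 2.33 CPM in treated control cells. In KO cells it measured 0.661 and 3.85 CPM untreated and 3.10 and 12.8 CPM treated. In each treated pair 1 library was high, the other lay within the untreated range, and the groups overlapped. The log2 fold changes were 0.53 ± 0.81 in control (adjusted p = 0.717, edgeR) and 1.69 ± 0.84 in KO cells (adjusted p = 0.267). With 1 library left out the KO fold change ran from 0.36 to 3.56. The lowest level, 3 counts in untreated KO replicate 1, came from the shallowest library, and the untreated KO replicates differed more than 99.1% of tested genes did.

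*Nr4a2*, the receptor NURR1 needed for midbrain dopamine neurons, was not called after TGF-β in either genotype. It measured 3.26 and 4.64 CPM in control, 3.94 and 3.39 in treated control, 6.61 and 4.65 in KO and 2.93 and 4.13 in treated KO cells. All 8 libraries lay within a narrow span, with both treated KO libraries below both untreated KO libraries. The log2 fold changes were -0.11 ± 0.39 in control (adjusted p = 0.890, edgeR) and -0.65 ± 0.38 in KO cells (adjusted p = 0.359).

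*Ier2*, a small nuclear protein of the serum response, was not called in any comparison either. It measured 15.3 and 17.9 CPM in control, 18.7 and 14.8 in treated control, 18.3 and 18.9 in KO, and 18.3 and 33.3 in treated KO cells. The other 7 libraries lay close together and treated KO replicate 2 was high. The log2 fold changes were 0.014 ± 0.29 in control (adjusted p = 0.983, edgeR) and 0.47 ± 0.29 in KO cells (adjusted p = 0.378).

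*Ier3*, an ERK-linked gene that affects cell survival, was the most abundant member and differed most between treated replicates. It measured 59.7 and 44.6 CPM in control and 149.2 and 24.5 CPM in treated control cells, and 48.7 and 35.8 CPM in KO and 24.0 and 247.1 CPM in treated KO cells. In both genotypes 1 treated library was far above and the other below both untreated libraries. The high treated library exceeded the low one 6.10-fold in control and 10.3-fold in KO. The group means of 86.8 ± 88.2 CPM (SD, n = 2) in treated control and 135.6 ± 157.7 CPM in treated KO cells therefore described neither library. The log2 fold changes of 0.74 ± 0.93 in control (adjusted p = 0.653, edgeR) and 1.69 ± 0.96 in KO (adjusted p = 0.340) did not pass the test. Leaving out treated control replicate 1 turned the control value to -1.10 and leaving out treated KO replicate 2 turned the KO value to -0.80.

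*Srf* itself showed the same split. It measured 38.1 and 29.9 CPM in control and 73.0 and 17.7 CPM in treated control cells, and 32.0 and 32.2 CPM in KO and 26.1 and 83.3 CPM in treated KO cells. Untreated libraries lay close together, and the treated ones lay on either side of them. The log2 fold changes were 0.42 ± 0.61 in control (adjusted p = 0.706, edgeR) and 0.77 ± 0.62 in KO cells (adjusted p = 0.508), and they turned to -0.95 and -0.29 without the high treated library of each genotype. Over the 8 libraries log2 CPM of *Ier3* and *Srf* had a Pearson correlation of 0.967. The same 2 treated libraries were high and the same 2 low for both genes, and their part in that value was not tested.

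*Arc*, best known in neurons, where its protein acts at synapses on the actin cytoskeleton, rose after TGF-β in KO cells. It had 1 and 2 counts in control and none in either KO library, and 15 and 10 counts in treated control and 47 and 109 counts in treated KO libraries. The treated levels were 1.41 and 1.06 CPM in control and 3.83 and 8.66 CPM in KO cells. All 4 treated libraries were above all 4 untreated ones, and both treated KO libraries were above both treated control libraries. In KO cells the treated mean of 6.25 ± 3.42 CPM (SD, n = 2) was at least 11.8-fold higher than the untreated group's mean floor of 0.53 CPM, and the change was called (adjusted p = 0.00533, edgeR). That bound is for the mean, and the lower treated KO library stood at 3.83 CPM. *Arc* passed the filter on low counts only through treated libraries in which it was high. In control cells 25 counts against 3 gave a ratio of 6.83 (95% counting interval 2.08 to 35.3), and the edgeR test was not passed (log2 fold change 2.68 ± 0.84, adjusted p = 0.0864). The KO call was lost without untreated KO replicate 2 (adjusted p = 0.0624).

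*Arc* was also the 1 member called between the treated genotypes, higher in the libraries labelled KO, and the fitted log2 difference was 2.32 ± 0.55 (adjusted p = 0.0261, edgeR), a direction in which 8.47% of tested genes were called. *Arc* passed the filter on low counts only through treated libraries in which it was high, so the call cannot be read against that share. The adjusted p rose to 0.0866 without treated control replicate 2 and to 0.220 without treated KO replicate 2, and to 0.0697 when the 4 treated libraries alone were fitted. *Egr1* and *Egr2* were also higher in both treated KO libraries than in both treated control libraries, with log2 fold changes of 1.17 ± 0.70 (adjusted p = 0.285) and 1.50 ± 0.67 (adjusted p = 0.161), neither past the test. With 1 library left out the value of *Egr2* ran from 0.83 to 2.985, the highest without treated control replicate 1. The remaining tested members overlapped between the treated genotypes, *Ier2* at 0.62 ± 0.28 (adjusted p = 0.169), *Nr4a1* at 0.80 ± 0.76, *Ier3* at 0.64 ± 0.91, *Srf* at 0.27 ± 0.60 and *Nr4a2* at -0.05 ± 0.38. In untreated cells no member was called between the genotypes, against 1.83% of all tested genes, and the log2 fold changes lay between -0.96 for *Egr2* and 0.49 for *Nr4a2*. *Arc* was at or under the floor in all untreated libraries, and no fold change is given.

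**Figure D3:**
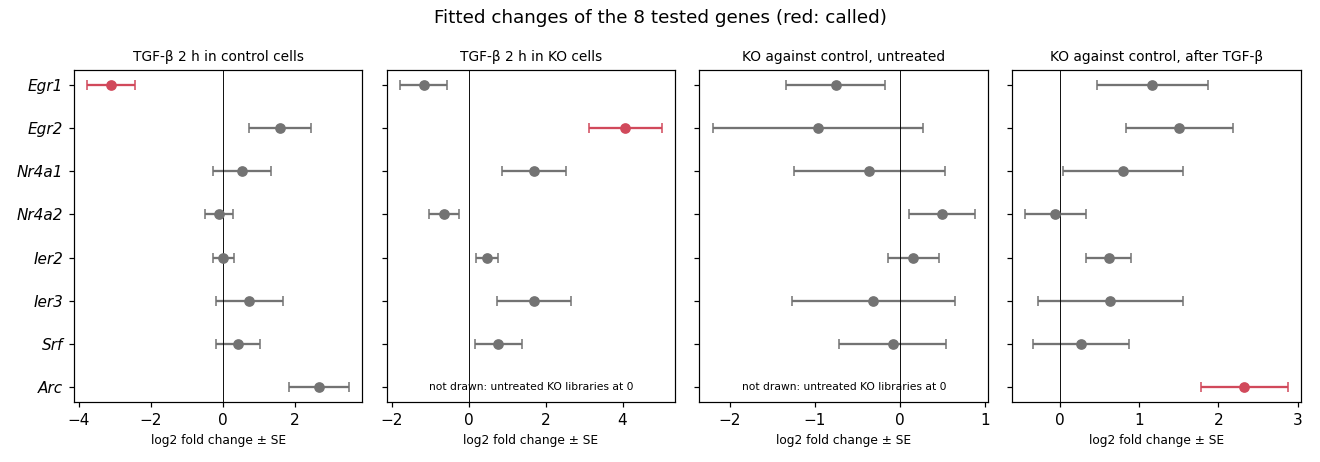
Fitted log2 fold changes of the 8 tested members with their standard errors (horizontal axes, scaled for each panel) in 4 comparisons of 2 libraries against 2. Red marks called values, which are *Egr1* at -3.10 in control cells, *Egr2* at 4.07 in KO cells and *Arc* at 2.32 between the treated genotypes. The value of *Arc* is not drawn where the untreated KO libraries were at 0.

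Whether the response to TGF-β itself differed between the genotypes was tested by the interaction term. No member was called, nor was any of the 13028 genes by edgeR (0%), although 1134 genes had an unadjusted p below 0.05. Of the members, *Arc* was among these (adjusted p = 0.497). DESeq2 called 25 genes and limma-voom 0 in the same comparison, none of them a member. The estimate was 1.92 ± 0.91 for *Egr1* (adjusted p = 0.597) and 2.47 ± 1.40 for *Egr2* (adjusted p = 0.655), so a call in 1 genotype and not in the other does not show that these genes responded differently.

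Counted together, TGF-β in control cells gave 0 of 8 tested members called higher and 1 lower, against 4.69% and 4.47% of all tested genes and 9.16% in either direction. In KO cells 2 were called higher and 0 lower, against 4.25% and 2.57%, and 6.82% in either direction. Between the treated genotypes 1 was called higher and 0 lower, against 8.47% and 6.57%, and 15% in either direction, and in untreated cells 0 and 0, against 1.03% and 0.798%. The median log2 fold change over the tested members was 0.48 in control and 1.23 in KO cells, beside 0.016 and 0 over all genes. *Egr2* and *Arc* passed the filter on low counts only through the treated libraries in which they were high, so neither these counts nor these medians speak for all 9 genes, and the calls of these 2 genes, in KO cells and between the treated genotypes, cannot be read against the shares of all genes. Treated and untreated libraries did not overlap for 3 of the 8 in control cells, 2 higher and 1 lower, and 53.7% of all tested genes also did not overlap (27.4% higher, 26.3% lower). In KO cells the count was 4 of 8, 2 higher and 2 lower, against 56.6% (28.4% and 28.3%). Between the untreated genotypes it was 4 of 8, 2 higher and 2 lower, against 52% (26.8% and 25.2%), and between the treated ones 3 of 8, all higher, against 55.8% (28.4% and 27.4%). These shares were near or below the background and give no result about the members.

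The fits were repeated, as an alternative chosen after the data were seen, with 1 library of each treated pair left out. The libraries were chosen by the levels of these same genes, and a lone treated library is assumed to vary as the others did, so the values are a description and no p is given. Without the libraries with the higher levels, *Ier3* stood at -1.10 and *Srf* at -0.95 in control cells, and at -0.79 and -0.29 in KO cells. Without the libraries with the lower levels, *Ier3* stood at 1.50 and *Srf* at 1.08 in control cells, and at 2.57 and 1.39 in KO cells. *Arc* stood at 1.84 between the treated genotypes without the higher libraries.

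**Figure D4:**
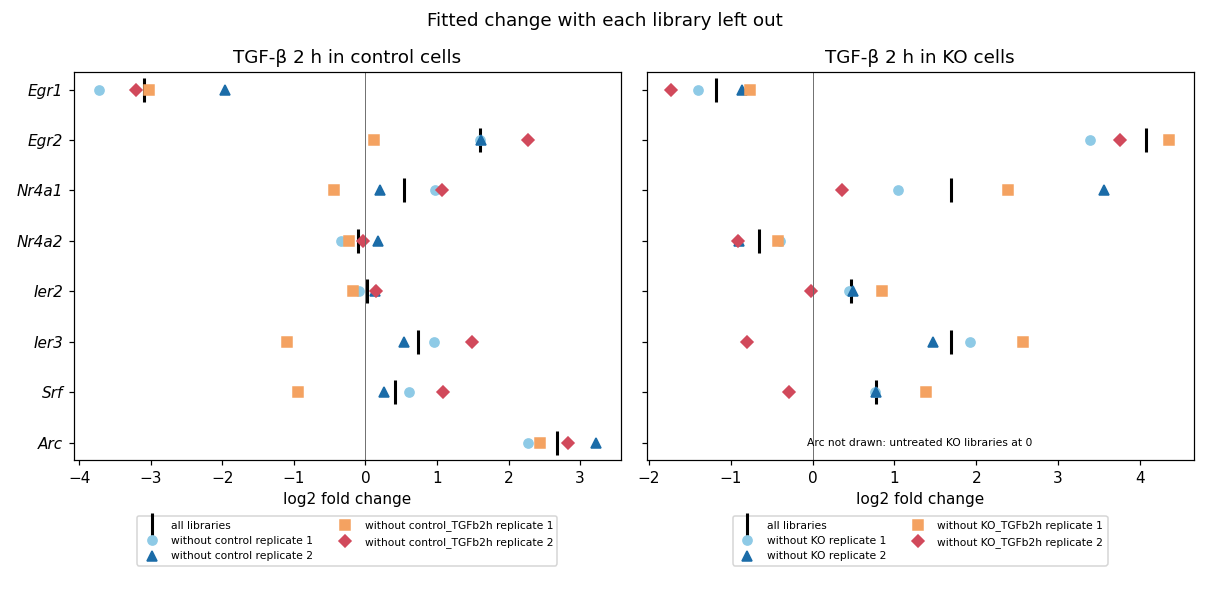
Fitted log2 fold change after TGF-β (horizontal axes) of each tested member with all libraries (black bar) and with 1 library of the comparison left out (coloured symbols), in control and KO cells. *Ier3* and *Srf* cross 0 when the treated library with the higher level is left out, to -1.10 and -0.95 in control cells, while *Egr1* stays below and *Egr2* and *Arc* stay above 0. *Arc* in KO cells and *Egr2* without KO replicate 2 are not drawn because the untreated libraries left were at 0.

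Of 4 relatives and corepressors of the EGR and NR4A factors, 2 were tested. *Egr4* and *Nr4a3* had too few reads to be tested. Of the other 2 genes, *Nab2*, a corepressor that EGR proteins induce and that then restrains them, fell in control cells, from 23.4 and 17.1 CPM to 9.46 and 7.73 CPM (log2 fold change -1.23 ± 0.33, adjusted p = 0.0470, edgeR). In KO cells it went from 22.5 and 25.1 to 8.31 and 16.3 CPM, and the change of -0.95 did not pass the test (adjusted p = 0.116). The other gene tested was not called in any comparison.

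Of the 7 SRF partners listed, 6 were tested and *Myocd*, the cardiac and smooth muscle cofactor, was too low. *Elk3*, a ternary complex factor, rose in both genotypes, by 0.79 ± 0.16 in control (adjusted p = 0.0207, edgeR) and 0.94 ± 0.16 in KO cells (adjusted p = 0.0109). *Mkl1*, which encodes a myocardin-related factor that senses actin, rose in KO cells by 1.03 ± 0.23 (adjusted p = 0.0276) and stood at 0.14 ± 0.22 in control cells (adjusted p = 0.726). In all, 1 of 6 was called higher in control and 2 of 6 in KO cells, and none lower, beside 4.69% and 4.25% of all tested genes called higher.

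Of 20 cytoskeletal genes known as SRF targets, 14 were tested and the smooth muscle genes *Acta2*, *Tagln*, *Cnn1*, *Myl9*, *Tpm2* and the coactivator gene *Tgfb1i1* were too low. Of the 14, 4 were called higher in control cells and 2 in KO cells, and none lower, with list medians of 0.51 and 0.70. Of all tested genes 4.69% were called higher in control and 4.25% in KO cells, with medians of 0.016 and 0. *Pdlim7*, an actin-associated adaptor, rose by 1.39 ± 0.33 in control (adjusted p = 0.0328, edgeR) and 1.74 ± 0.33 in KO cells (adjusted p = 0.0158). *Cald1*, which encodes the actin-binding caldesmon, rose by 0.78 and 0.98, and *Filip1l* (1.36) and *Tpm1*, a tropomyosin (0.55), were called in control cells. In KO cells *Filip1l* stood at 0.99 (adjusted p = 0.0654) and *Tpm1* at 0.30 (adjusted p = 0.246).

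Among 38 other immediate-early genes 36 were tested. Of these, 9 were called higher and 3 lower in control cells, and 12 higher and 1 lower in KO cells, with list medians of 0.68 and 0.88, beside 4.69% and 4.47% of all tested genes in control, 4.25% and 2.57% in KO cells, and medians of 0.016 and 0. *Ctgf*, a matricellular gene of the TGF-β and YAP programmes, rose from 56.5 and 74.2 CPM to 629.7 and 438 CPM in control and from 66.8 and 61.5 to 627.4 and 1117 CPM in KO cells. Its log2 fold changes were 3.03 ± 0.29 (adjusted p = 0.000798, edgeR) and 3.77 ± 0.30 (adjusted p = 0.000313). *Rhob*, a small GTPase of endosomes and actin, rose by 2.67 and 2.58, *Cyr61* by 2.21 and 2.43, *Gadd45b*, a stress gene, by 1.75 and 2.33, in control and KO cells. *Jun*, an AP-1 subunit, was called in KO cells (2.70 ± 0.69, adjusted p = 0.0480), where it measured 31.0 and 125.2 CPM after TGF-β, and stood at 1.72 ± 0.65 in control cells (adjusted p = 0.127). The genes called lower, named after their values were seen, were *Zfp36* (-1.39), which encodes an mRNA-destabilising protein, *Per1* (-1.55), a clock gene, and *Sik1* (-0.72), a kinase that restrains CREB coactivators, in control cells, and *Btg2* (-1.41), an antiproliferative gene, in KO cells.

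A list of ERK feedback genes held 12 genes that ERK signalling induces, most of them inhibitors of the pathway and 2 of them, *Etv4* and *Etv5*, ETS activators, and 11 were tested. None was called higher and 1 lower in control cells, and 1 was called higher and 1 lower in KO cells, beside 4.69% and 4.47% of all tested genes in control and 4.25% and 2.57% in KO cells. *Spry1*, an inhibitor of receptor tyrosine kinase signalling, fell in both, from 14.5 and 17.2 to 2.53 and 3.70 CPM in control and from 8.60 and 10.9 to 1.71 and 1.83 CPM in KO cells. The log2 fold changes were -2.35 ± 0.31 (adjusted p = 0.00306, edgeR) and -2.46 ± 0.33 (adjusted p = 0.00328). *Spred2*, of the same inhibitor family, rose in KO cells by 0.95 ± 0.17 (adjusted p = 0.0109).

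Between the treated genotypes 8 of the 75 tested genes of all these lists (10.7%) were called, all higher in the libraries labelled KO, where 8.47% of all tested genes were called higher. This share was near the background, and the genes are named after their values were seen. They were *Mkl1* (log2 fold change 0.92) and *Mkl2* (0.92) of the SRF partners, *Fhl1* (1.68), a LIM protein, of the cytoskeletal targets, *Per1* (1.26) and *Sik1* (1.31) of the immediate-early genes, *Spred2* (0.98) of the ERK feedback genes, and *Snai1* (0.79) and *Pmepa1* (0.94) of the TGF-β check described next. *Sik1* measured 29.4 and 28.8 CPM in treated control and 76.9 and 67.5 CPM in treated KO cells, with replicates close together. No gene of any list was called in untreated cells or in the interaction, where *Sik1* had an adjusted p of 0.445.

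The split of the treated replicates was also seen in most of these lists. Control replicate 1 was higher than replicate 2 for 33 of 36 other immediate-early genes, 9 of 11 ERK feedback genes, 12 of 14 cytoskeletal targets, 6 of 6 SRF partners and 6 of 6 genes of the TGF-β check, but for 1 of 2 EGR and NR4A relatives. In KO cells replicate 2 was higher for 32 of 36, 10 of 11, 11 of 14, 6 of 6, 5 of 6 and 2 of 2. The median difference was largest for the ERK feedback genes, at 1.06 in control and -0.96 in KO. The untreated KO pair leaned the same way as the treated KO pair in some lists, by smaller medians. There replicate 2 was higher for 10 of 11 ERK feedback genes (median -0.31), 23 of 36 other immediate-early genes (-0.15) and 9 of 14 cytoskeletal targets. It was higher for 3 of 6 SRF partners and 2 of 6 genes of the TGF-β check. *Dusp5*, an ERK phosphatase chosen for display after its values were seen, measured 6.03 and 8.42 CPM in control and 30.6 and 8.36 CPM in treated control cells, and 7.05 and 7.71 CPM in KO and 9.05 and 71.3 CPM in treated KO cells. *Fosl1*, an AP-1 member chosen in the same way, measured 91.3 and 18.5 CPM in treated control and 28.7 and 189.5 CPM in treated KO cells, around untreated levels of 49.8 to 58.7 CPM.

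A list of 6 genes of the direct TGF-β response served as a check on the treatment. Of the 6, 5 were called higher in both genotypes, among them *Snai1*, *Skil*, *Smad7* and *Pmepa1*, and *Tgif1* was called in neither. *Snai1*, a repressor of E-cadherin, measured 15.3 and 12.5 CPM in treated control cells and 26.1 and 21.9 CPM in treated KO cells, from at most 1.54 CPM untreated. *Skil*, a SMAD corepressor, measured 528.4 and 487.4 CPM in treated control and 453.5 and 490.4 CPM in treated KO cells, from at most 137.4 CPM untreated. These 2 genes differed little between the replicates in which *Ier3* and *Srf* were divided, while *Smad7* showed the split, at 0.95 in control and -0.65 in KO. Among the epithelial markers *Cldn4*, a tight junction gene, was divided in the same way, at 11.8 and 1.38 CPM in treated control and 2.45 and 12.9 CPM in treated KO cells. *Krt8* and *Krt18* leaned the same way. *Ocln* went the other way, at 34.4 and 40.4 CPM in treated control and 36.5 and 33.1 CPM in treated KO cells. *Krt19* was close between replicates, at 928 and 941 CPM and at 1251 and 1277 CPM. The summed epithelial markers, mostly *Krt8* and *Krt18*, were 10970 and 8069 CPM and 7976 and 10430 CPM in the same libraries, and 5913 to 7011 CPM untreated. Their part in the split was not tested.

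**Figure D5:**
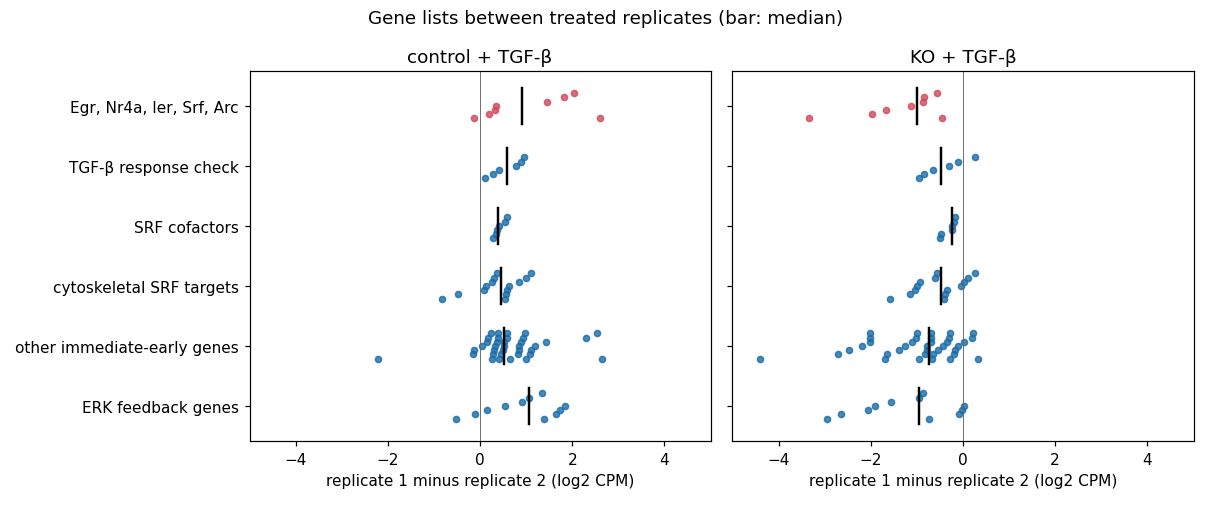
Difference between treated replicates, replicate 1 minus replicate 2 in log2 CPM (horizontal axes), for the tested members (red) and 5 gene lists (blue) in control and KO cells. Each point is a gene and the black bar the list's median. Every list's median is above 0 in control and below 0 in KO cells, from 1.06 and -0.96 for the ERK feedback genes to 0.39 and -0.24 for the SRF partners.

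The genes whose log2 CPM ran most like each member's over the 8 libraries were taken from all tested genes as a description, and the libraries share their treatment and replicate split. *Ier3* was closest to *Tsku* (Pearson r = 0.991), *Axin1* (0.982) and *Dusp7* (0.971), and *Srf* to *Fam100a* (0.984), *Stx11* (0.982) and again *Tsku* (0.980). *Arc* was closest to *Rras* (0.986) and *Jag1* (0.983), and *Egr2* to *Lhx6* (0.979), *Fgfrl1* (0.963) and *Il4ra* (0.958). *Egr1* was closest to *Ncoa3* (0.989), *Mll3* (0.968) and *Nr1d1* (0.967). *Nr4a1* was closest to *Axl* (0.959), *Relt* (0.953) and *Papd5* (0.950), *Nr4a2* to *Tsr2* (0.941), *Gm15464* (0.926) and *Snx29* (0.915), and *Ier2* to *Wwc1* (0.974), *Tle3* (0.972) and *Bcar1* (0.965). Among the members themselves *Egr2* had a correlation of 0.921 with *Arc* and 0.827 with *Nr4a1*, and *Ier2* of 0.741 with *Ier3*. The most negative were *Egr2* with *Nr4a2* (-0.59), *Egr1* with *Arc* (-0.54) and *Nr4a2* with *Arc* (-0.52). *Nr4a1* with *Nr4a2* (-0.47) and *Egr1* with *Egr2* (-0.46) followed.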

How the data were processed

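RNA-seq libraries of NMuMG cells, 2 per group in 4 groups, were analysed from a table of raw counts per gene that the authors deposited. By the study's methods, reads were aligned with subjunc of Rsubread and duplicates were removed before counting. Such a step can limit the counts of short abundant messages, and its part in the deposited counts was not tested. The submitters' processing notes instead name HISAT2, limma and mm10. The library kit is given differently in these sources, and neither the tool that counted reads nor its use of strand is given in the sources used here. Gene identifiers and their order equalled those of GENCODE vM1 (NCBIM37).

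Here counts were scaled by TMM, filtered with filterByExpr and fitted in edgeR 4.0.16 (R 4.3.3) as 4 group means with the quasi-likelihood test, with Benjamini-Hochberg adjustment over 13028 genes. Interaction calls used the adjusted p alone. The biological coefficient of variation was 0.18. Counting intervals are exact binomial intervals on pooled counts, and cover counting error only. Log2 CPM used a prior count of 2. The steps were tested on simulated data. Alternatives were DESeq2 1.42.0, voom in limma 3.58.1, RLE scaling, other filters, thinning to the smallest total, a replicate block, no fold threshold, the comparison's own libraries, and leaving out each library. Named from each list were at most 5 genes called after TGF-β, those with the largest change in control cells, and for each tested member the 3 genes with the highest correlation. Some genes that this rule selects are not reported here. The members and lists were chosen with earlier results of these data known.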

Additional observations from a re-analysis of the deposited data

How the results depend on the processing

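In control cells 1 member was called after TGF-β, and 0 with limma-voom (*Egr1* adjusted p = 0.0648) and 3 with no filter on low counts (*Arc*, *Ier3* and *Egr1*). In KO cells 2 were called, and 1 with limma-voom, 1 with a replicate block (*Egr2* adjusted p = 0.0633) and 5 with no filter (*Egr2*, *Arc*, *Nr4a1*, *Ier3* and *Srf*). Between the treated genotypes 1 was called, and 4 with no filter and 0 with the 4 treated libraries alone. In the interaction 0 were called, and 1 with no filter (*Ier3*, adjusted p = 0.0303). With no filter the fitted SE was smaller, in KO cells 0.20 in place of 0.96 for *Ier3* and 0.22 in place of 0.62 for *Srf*. In the interaction it was 0.28 in place of 1.32 for *Ier3*. The treated KO replicates of these 2 genes differed 10.3-fold and 3.19-fold, so such an SE does not describe their spread. In untreated cells 0 were called under every alternative. The other alternatives (DESeq2, RLE scaling, a mean of at least 10 counts, thinning, no fold threshold) left these counts within 1.5-fold. The replicate numbers were not taken to pair the libraries. Same-numbered deviations from the group means had correlations of 0.297, -0.0092, 0.098 and -0.47 in the 2 TGF-β comparisons and the untreated and treated genotype comparisons. With the numbers of the treated KO libraries exchanged, an alternative chosen after seeing the data, the block gave 1 member called between the treated genotypes. The cause of these changes was not tested.

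Leaving out 1 library moved the members called to between 0 and 1 in control cells, 0 and 2 in KO cells, 0 and 2 between the treated genotypes, and 0 and 0 in untreated cells and in the interaction. With 1 library of each treated pair left out, the thresholds were passed by 3 members in control cells under either exclusion, by 2 or 6 in KO cells and by 0 or 1 between the treated genotypes. Those libraries were chosen by the levels of these same genes, so these counts are a description and not calls. Without the lower treated library of each genotype *Ier3* in KO cells was at 2.57. Signs turned for these log2 fold changes, given from the lowest to the highest value over the exclusions of 1 library: in control cells after TGF-β *Nr4a1* -0.44 to 1.07, *Nr4a2* -0.34 to 0.17, *Ier2* -0.17 to 0.15, *Ier3* -1.10 to 1.50, *Srf* -0.95 to 1.08, in KO cells *Ier2* -0.018 to 0.85, *Ier3* -0.80 to 2.56, *Srf* -0.29 to 1.39, between untreated genotypes *Egr1* -1.39 to 0.38, *Nr4a1* -2.23 to 0.29, *Srf* -0.25 to 0.10, between treated genotypes *Nr4a1* -0.55 to 1.76, *Nr4a2* -0.31 to 0.18, *Ier3* -1.84 to 2.47, *Srf* -0.79 to 1.63, and in the interaction *Nr4a1* -0.16 to 3.03, *Ier2* -0.016 to 0.85, *Ier3* -1.52 to 2.80, *Srf* -0.69 to 1.73. Thinned to the smallest total, *Nr4a2* turned to 0.24 between treated genotypes and 0.0578 in the interaction. Over all genes and alternatives, those exclusions included, the calls ranged from 139 to 2397 in control cells, 136 to 1832 in KO cells, 41 to 797 between untreated and 402 to 2823 between treated genotypes, and 0 to 211 in the interaction. With no filter 1677 genes had an unadjusted interaction p below 0.05, and with DESeq2 907. Counts under 10 in *Egr2*, *Egr3* and *Arc* limit what 2 libraries a group can show.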
